A study of Mus musculus with 8 samples.

Results

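The genes described here encode enzymes of xenobiotic metabolism and 2 redox regulators in alveolar type 2 (AT2) cells, the epithelial cells that secrete surfactant into the alveoli, with and without the small GTPase RhoA. They were chosen by symbol, except *Noxo1*, which was added by name and which the paper lists among its most upregulated genes. A gene was taken if its symbol begins as those of the cytochrome P450, glutathione S-transferase, UDP-glucuronosyltransferase, aldehyde dehydrogenase, alcohol dehydrogenase, aldo-keto reductase, quinone oxidoreductase, aldehyde oxidase, carboxylesterase, flavin monooxygenase, sulfotransferase, heme oxygenase, glutathione peroxidase, peroxiredoxin, thioredoxin and NADPH oxidase families do, and *Noxo1* was added. Of the 812 genes in the deposited table, 14 met this rule: *Cyp1a1*, *Cyp1b1*, *Cyp4v3*, *Fmo2*, *Aox3*, *Ces1d*, *Ces2g*, *Aldh1a2*, *Akr1c19*, *Gsto1*, *Gstm2*, *Gstt1*, *Noxo1* and *Txnip*. In GENCODE M21, 279 protein-coding genes meet it, so most genes of these families have no value here.

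RNA-seq was performed on AT2 cells of C57BL/6 mice of 2 genotypes, labelled wildtype and RhoA_KO, with 4 samples of each. The wildtype cells came from RhoA fl/fl mice, which carry the floxed gene without Cre, and the RhoA_KO cells came from Sftpc-cre;RhoA fl/fl mice. There, the *Sftpc* promoter drives Cre, which limits the deletion to cells that use, or have used, that promoter. By the labels, the primary cells of both genotypes were kept in culture for a single passage and exposed for 16 hours to 50 μg/mL of cockroach extract (CRE), so no sample without allergen enters the comparison. The paper describes the mice as models of asthma and, in a caption, as treated with CRE. An exposure of the animals before isolation is therefore also possible. Ages are not given in the labels, nor whether a sample pools several animals. AT2 cells were enriched by removing cells with CD16/32, CD45, Ter119 or Sca-1 on magnetic beads and then those that stuck to IgG-coated dishes.

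The comparison asks which transcripts differ between CRE-treated WT and RhoA-deficient AT2 cells. The deposited table gives 1 average FPKM (a fragment count divided by transcript length and by the number of mapped fragments) per genotype, and every one of its 812 genes is marked as significant in the authors' test. The values of single samples, their spread and their depth are therefore unknown. All values below describe group averages, no test was run on them, and a gene's presence in the table already means that it was marked there as different. Differences are given as log2(FPKM + 1), RhoA-deficient minus WT, in which the added 1 understates the difference of genes with low values. Ratios are those of the FPKM averages themselves. *Rhoa* is not among the 812 genes and was not analysed here, so the deletion was not checked. Of 15 AT2 marker genes, 14 were in the table, and all 14 had values above 0 in both genotypes. The marker not in the table is *Sftpc*, whose promoter drives Cre. In WT cells the 14 ranged from an FPKM of 2.45 for *Etv5* to 3358 for *Lyz2*. The gene with the highest FPKM of the table in both genotypes was *Scgb1a1*, a marker of club cells of the airways. It had an FPKM of 27285 in WT and 9204 in RhoA-deficient cells.

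Xenobiotic metabolism proceeds in steps. Cytochrome P450s, flavin monooxygenases, aldehyde oxidases, carboxylesterases and reductases first oxidize, hydrolyze or reduce a foreign compound, and transferases then attach glutathione, glucuronic acid or sulfate so that transporters can export it. The aryl hydrocarbon receptor (AhR), a ligand-activated transcription factor, induces *Cyp1a1* and *Cyp1b1*, and NRF2 induces many genes of glutathione synthesis and antioxidant defense. In the lung, club cells of the airways are known for high levels of such enzymes, and AT2 cells also express several of them.

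The stretches directly before the start sites of *Cyp1a1*, *Cyp1b1* and *Noxo1* are shown because the first 2 are the genes of the set induced through AhR and the third has the largest difference in the set. Each is 200 bases of GRCm38.p6 as given by RefSeq, written 5′ to 3′ on the strand of the gene and ending at the last base before the start. Capitals mark the AhR core motif GCGTG, or its reverse complement CACGC where the motif lies on the other strand. The *Cyp1a1* stretch is chr9:57697413-57697612 on the plus strand, that of *Cyp1b1* is chr17:79715062-79715261 on the minus strand, and that of *Noxo1* is chr17:24696034-24696233 on the plus strand. The RefSeq start of *Cyp1a1*, at 57697613, lies inside the longer gene span of GENCODE.
Cyp1a1: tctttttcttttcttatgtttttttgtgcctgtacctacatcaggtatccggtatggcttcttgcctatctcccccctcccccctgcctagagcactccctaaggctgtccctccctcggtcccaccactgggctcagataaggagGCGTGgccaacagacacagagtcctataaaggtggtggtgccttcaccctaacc
Cyp1b1: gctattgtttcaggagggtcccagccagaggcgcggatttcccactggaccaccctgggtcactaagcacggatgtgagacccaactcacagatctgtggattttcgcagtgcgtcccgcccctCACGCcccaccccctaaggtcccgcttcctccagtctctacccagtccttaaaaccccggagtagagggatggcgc
Noxo1: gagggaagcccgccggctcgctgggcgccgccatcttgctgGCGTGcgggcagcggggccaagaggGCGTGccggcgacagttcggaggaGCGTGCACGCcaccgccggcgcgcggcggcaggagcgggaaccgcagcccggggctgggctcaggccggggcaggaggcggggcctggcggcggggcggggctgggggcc
*Cyp1a1* has 1 core motif, which begins 54 bases before the start, and *Cyp1b1* has 1 on the opposite strand, 76 bases before the start. *Noxo1* has 4, of which the last begins 105 bases before the start and lies on the opposite strand, directly after the one before it.

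RhoA-deficient AT2 cells had higher FPKM than WT cells for 8 of the 14 genes and lower FPKM for 6. Over the whole table, 55.2% of the genes were higher and 44.8% were lower, so the split of the 14 genes was near that of all listed genes. The 8 higher genes were *Noxo1*, *Akr1c19*, *Gstt1*, *Aox3*, *Cyp4v3*, *Txnip*, *Fmo2* and *Ces1d*. The 6 lower genes were *Gsto1*, *Ces2g*, *Gstm2*, *Cyp1a1*, *Aldh1a2* and *Cyp1b1*. A difference of at least 1 in log2(FPKM + 1), which is 2-fold on that scale, was reached by 7 of the higher and 4 of the lower genes. In the whole table, 23.6% of the genes were higher and 28.4% were lower by at least this much. With the differences centred on the median of the table, 0.65, 2 higher and 6 lower members reached it. No lower gene of the table lies above -0.53 before centring, so all 364 lower genes, 44.8% of the table, reach it once centred. The count of 6 lower members was therefore fixed by the centring. The share of the table that is higher by this much after centring was not counted. Without centring, *Aldh1a2* lay just outside this threshold at -0.97 and *Cyp1a1* just inside at -1.12. The median difference was 1.37 over the 8 higher genes, against 0.94 over all 448 higher genes of the table. These 8 and their median include *Noxo1*, which was added by name and was already reported as strongly higher. Over the 6 lower genes the median was -1.13, against -1.14 over all 364 lower genes.

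**Figure D1:**
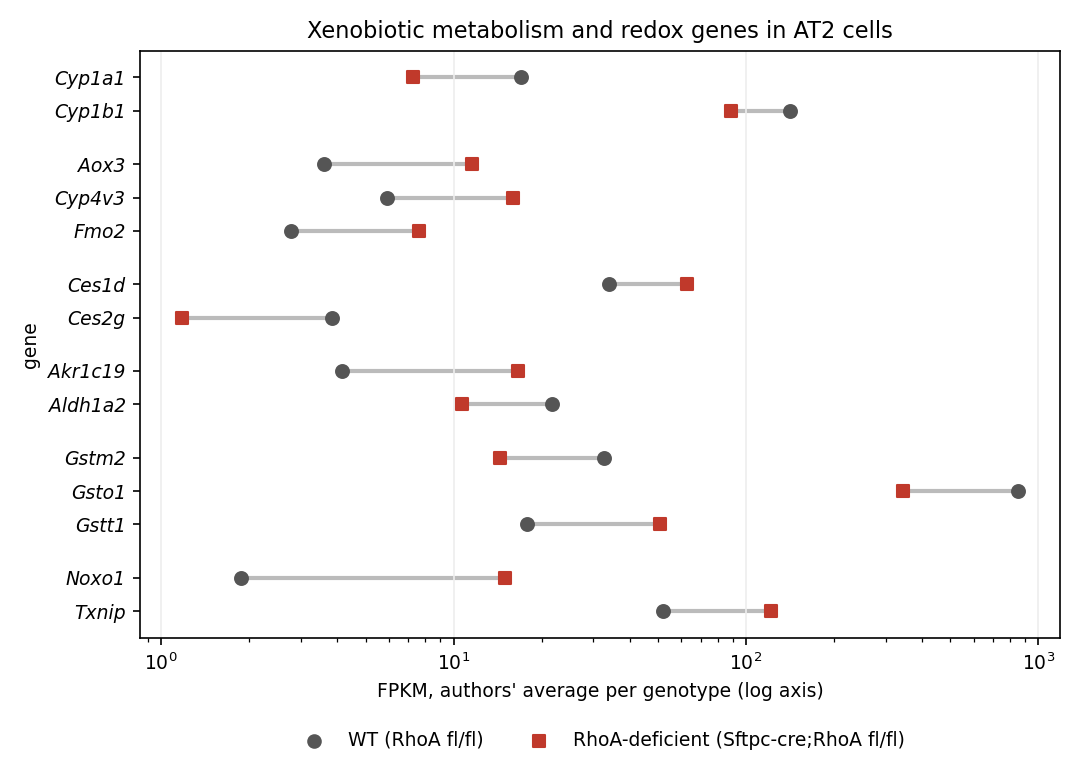
FPKM of the 14 genes on a log axis, ordered by role, with the authors' average for WT AT2 cells as grey circles and that for RhoA-deficient AT2 cells as red squares, and no error bars because 1 value is given per genotype. The lower genes include *Gsto1*, the most abundant, and the higher genes include *Noxo1*, which has the longest distance between the genotypes, from 1.88 to 15.0 FPKM.

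Both *Cyp1* genes were lower in RhoA-deficient AT2 cells. They encode monooxygenases that oxidize polycyclic aromatic hydrocarbons, and they are standard readouts of AhR activity. *Cyp1a1* (ENSMUSG00000032315.6), at 57687928 to 57703824 of chromosome 9 in GRCm38, plus strand, had an FPKM of 16.9 in WT and 7.24 in RhoA-deficient cells, 2.34-fold lower. *Cyp1b1* (ENSMUSG00000024087.4), on chromosome 17 from 79701537 to 79715061 on the minus strand, had an FPKM of 142 in WT and 88.9 in RhoA-deficient cells, 1.59-fold lower. *Cyp1b1* thus remained the more abundant of the pair in both genotypes, per transcript length, while *Cyp1a1* had the larger relative difference. The difference of *Cyp1b1*, -0.67 in log2(FPKM + 1), ranks 342 of the 364 lower genes, and it is the smallest among the 14 genes. Of 50-base windows in the transcripts of *Cyp1a1*, 3.43% also occur in *Cyp1a2*, and none of those of *Cyp1b1* occur in another gene. Of 14 genes listed for AhR, comprising the receptor, its partners, its regulators and its targets, this pair was in the table. The receptor itself, its repressor and the other targets were not analysed here.

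The 3 other oxidases of the set were all higher in RhoA-deficient AT2 cells. *Aox3*, which encodes a molybdenum-containing aldehyde oxidase that acts on aldehydes and aromatic nitrogen heterocycles, had an FPKM of 3.61 in WT and 11.6 in RhoA-deficient cells, a ratio of 3.20. *Cyp4v3*, a member of the CYP4 family of fatty acid hydroxylases, had an FPKM of 5.93 and 16.0, a ratio of 2.70. *Fmo2*, the flavin monooxygenase typical of lung, which oxidizes sulfur and nitrogen atoms of drugs, had an FPKM of 2.78 and 7.61, a ratio of 2.74. All 3 were therefore low in WT cells, and they differed by similar factors. Their differences in log2(FPKM + 1) were 1.45, 1.30 and 1.19. Exons of *Cyp4v3* share 8.22% of their bases with the protein-coding gene *Gm45753* on the same strand, so part of its value could belong to that gene, and its locus in the table is longer than the gene.

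The 2 carboxylesterases, which hydrolyze ester and amide bonds of drugs and lipids, lay in opposite directions. *Ces1d* had an FPKM of 34.1 in WT and 62.7 in RhoA-deficient cells, a ratio of 1.84. *Ces2g* had an FPKM of 3.85 and 1.18, 3.26-fold lower, and was the least abundant gene of the set in RhoA-deficient cells. Because its values are low, its difference depends on the pseudocount: it was -1.15 with a pseudocount of 1 and -1.63 with 0.1. Both genes belong to clusters of close copies on chromosome 8. Of 50-base transcript windows, 1.08% of those of *Ces1d* also occur in *Ces1b*, *Ces1f* or *Ces1g*, and 3.07% of those of *Ces2g* occur in other genes, most of them *Ces2* genes and their pseudogenes.

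The enzymes of aldehydes and other carbonyls were likewise divided. *Aldh1a2* encodes a retinaldehyde dehydrogenase, which makes retinoic acid, and is known from mesenchymal and mesothelial cells of the lung. WT cells had an FPKM of 21.8 and RhoA-deficient cells 10.6, 2.05-fold lower. *Akr1c19*, an aldo-keto reductase, had an FPKM of 4.14 in WT and 16.6 in RhoA-deficient cells, a ratio of 4.02. Its difference of 1.78 in log2(FPKM + 1) ranks 27 of the 448 higher genes and is the second largest of the set. Exons of *Akr1c19* share 4.94% of their bases with *Marcksl1-ps4*, a processed pseudogene on the same strand. Of 23 genes listed for retinoid handling, *Aldh1a2* alone was in the table.

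Among the glutathione S-transferases, *Gsto1* and *Gstm2* were lower and *Gstt1* was higher in RhoA-deficient AT2 cells. *Gsto1*, an omega-class enzyme with thiol transferase and dehydroascorbate reductase activity, had an FPKM of 851 in WT and 344 in RhoA-deficient cells, 2.47-fold lower. It was the most abundant of the 14 genes in both genotypes, and by level it ranks 5 of the 812 genes in WT and 29 in RhoA-deficient cells. *Gstm2*, a mu-class enzyme, had an FPKM of 32.6 in WT and 14.4 in RhoA-deficient cells, 2.27-fold lower. *Gstt1*, a theta-class enzyme, had an FPKM of 17.9 and 50.7, a ratio of 2.84. The order of *Gstm2* and *Gstt1* by level was thus exchanged between the genotypes. Summed over the 3 transferases, FPKM came to 902 in WT and 409 in RhoA-deficient cells, and most of this sum was *Gsto1*. Of 50-base windows of *Gstm2*, 5.66% also occur in *Gstm1* or in *Gm12499* and *Gm6665*, whereas *Gsto1* and *Gstt1* share none. The table's locus of *Gsto1*, from 47736857 to 47919299 on chromosome 19, spans more than the gene, which runs from 47854970 to 47864790.

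The remaining pair acts on redox balance directly, and both genes were higher in RhoA-deficient AT2 cells. *Noxo1* (ENSMUSG00000019320.14), on chromosome 17 from 24696234 to 24700529 on the plus strand, encodes the organizer subunit that brings the NADPH oxidase NOX1 to the membrane and supports the production of superoxide. WT cells had an FPKM of 1.88 and RhoA-deficient cells 15.0, a ratio of 8.00, which makes it the gene with the lowest WT level and the largest difference of the 14. In log2(FPKM + 1) it differed by 2.48, place 8 among the 448 higher genes, and with a pseudocount of 0.1 it was 2.93. This value is uncertain, because 58.5% of the 50-base windows in *Noxo1* transcripts also occur, on the opposite strand, in transcripts of *Tbl3*. The libraries were stranded, but the sources used here do not state whether strand entered the estimates, and the table's locus joins both genes, ending at 24707660. *Txnip*, which encodes an inhibitor of thioredoxin that also limits glucose uptake, had an FPKM of 52.1 in WT and 121 in RhoA-deficient cells, a ratio of 2.33. Exons of *Txnip* share 19.4% of their bases with the antisense gene *Gm15441*, so the same reservation holds for it.

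**Figure D2:**
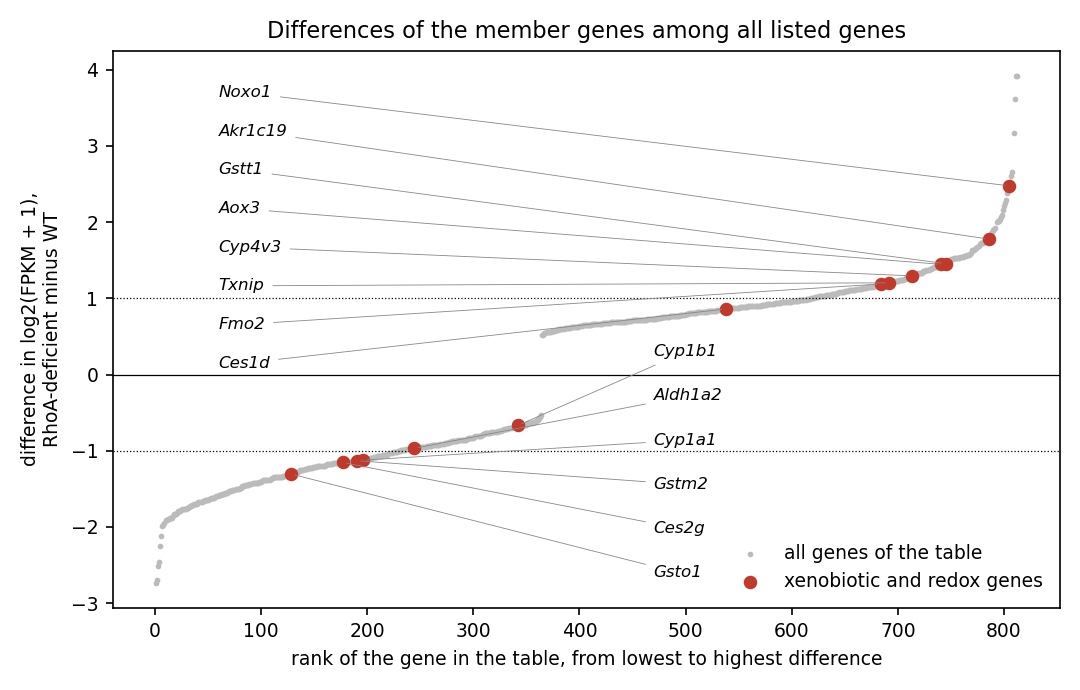
Differences in log2(FPKM + 1), RhoA-deficient minus WT, of all 812 listed genes in rank order (grey) with the 14 xenobiotic and redox genes in red, and dotted lines at 1 and -1. No gene lies near 0 because the table lists genes called different, and *Noxo1* at 2.48 and *Akr1c19* at 1.78 stand nearest to the upper end of the curve, whereas the lower genes, down to -1.30 for *Gsto1*, stay away from its lower end.

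By level, the 6 lower genes were more abundant in WT cells, with a median FPKM of 27.2, than the 8 higher genes, with a median of 5.03. In RhoA-deficient cells the medians were 12.5 and 16.3. In the whole table the relation in WT cells was the opposite, with a median WT FPKM of 10.3 for the lower and 15.4 for the higher genes. The WT value also enters the sorting into higher and lower genes, so these medians are a description only. Summed over all 14 genes, FPKM came to 1191 in WT and 768 in RhoA-deficient cells, of which *Gsto1* made up 851 and 344. All 14 genes had a mean FPKM over both genotypes of at least 1, and 13 had at least 5, *Ces2g* being the exception.

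Of the 16 gene families in the rule, 8 had a gene in the table. The cytochrome P450 family had 3 of 100 annotated protein-coding genes there, the glutathione S-transferases 3 of 21, and the carboxylesterases 2 of 19. The aldehyde dehydrogenases had 1 of 21, the aldo-keto reductases 1 of 17, the genes with the thioredoxin symbol 1 of 18 (the inhibitor gene *Txnip*), the flavin monooxygenases 1 of 7 and the aldehyde oxidases 1 of 4. The 22 UDP-glucuronosyltransferases, 21 sulfotransferases, 8 glutathione peroxidases, 7 peroxiredoxins, 6 alcohol dehydrogenases, 3 NADPH oxidases, 2 quinone oxidoreductases and 2 heme oxygenases had 0. A gene outside the table has no value here, which does not show that it was alike in the genotypes.

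The steps around these enzymes were followed in 11 lists with 180 genes, of which 155 do not meet the symbol rule. Of these 155 genes, 14 were in the table, 13 higher and 1 lower in RhoA-deficient AT2 cells, where 55.2% of all listed genes were higher. The median difference over the 13 higher genes was 0.81, below the 0.94 over all higher genes of the table. By at least 1 in log2(FPKM + 1), 4 of the 14 genes were higher, where 23.6% of the whole table were, and *Pgrmc1* was lower.

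Both listed genes of glutathione synthesis in the table were higher. *Gclc*, the catalytic subunit of the rate-limiting enzyme and an NRF2 target, had an FPKM of 168 in WT and 450 in RhoA-deficient cells, a ratio of 2.68, and *Gss*, the enzyme of the next step, had 63.7 and 113, a ratio of 1.77. Of the transferases that use glutathione, *Gstt1* was higher as well, and *Gsto1* and *Gstm2* were lower. *Osgin1*, a stress-induced NRF2 target, had an FPKM of 81.6 and 127. Of the 25 genes listed for NRF2, *Gclc* and *Osgin1* were the 2 in the table.

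The 5 listed genes of antioxidant defense that were in the table were also higher. *Cat*, which encodes catalase and removes hydrogen peroxide, had an FPKM of 160 in WT and 252 in RhoA-deficient cells, a ratio of 1.57. *Selenop*, a secreted selenium carrier, had 90.2 and 193, a ratio of 2.14, and *Sesn2*, a stress-induced sestrin, had 35.0 and 61.9. The metallothioneins, which bind zinc and copper and scavenge radicals, were the most abundant, with 614 and 1125 for *Mt1* and 694 and 1365 for *Mt2*. These 5 were the genes of that list, of 24, that were in the table.

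*Duox2*, a dual oxidase that releases hydrogen peroxide from epithelia, was the other gene in the table among the 17 listed for NADPH oxidases. WT cells had an FPKM of 0.334 and RhoA-deficient cells 1.17, so its ratio of 3.50 rests on values near 0. Of the transporters, *Abcc3*, which exports glucuronide and glutathione conjugates, had an FPKM of 35.9 and 59.6, and *Slco4c1*, an organic anion carrier, had 0.732 and 2.55. The carbonyl enzymes *Dcxr* and *Hsd17b11* had ratios of 2.09 and 1.61. The lower gene was *Pgrmc1*, a heme-binding partner of cytochrome P450s, with an FPKM of 229 in WT and 98.6 in RhoA-deficient cells, 2.32-fold lower. *Pgrmc1* and both *Cyp1* genes were thus lower together, whereas *Cyp4v3* was higher. The lists of other xenobiotic receptors and of other conjugation enzymes had 0 genes in the table.

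**Figure D3:**
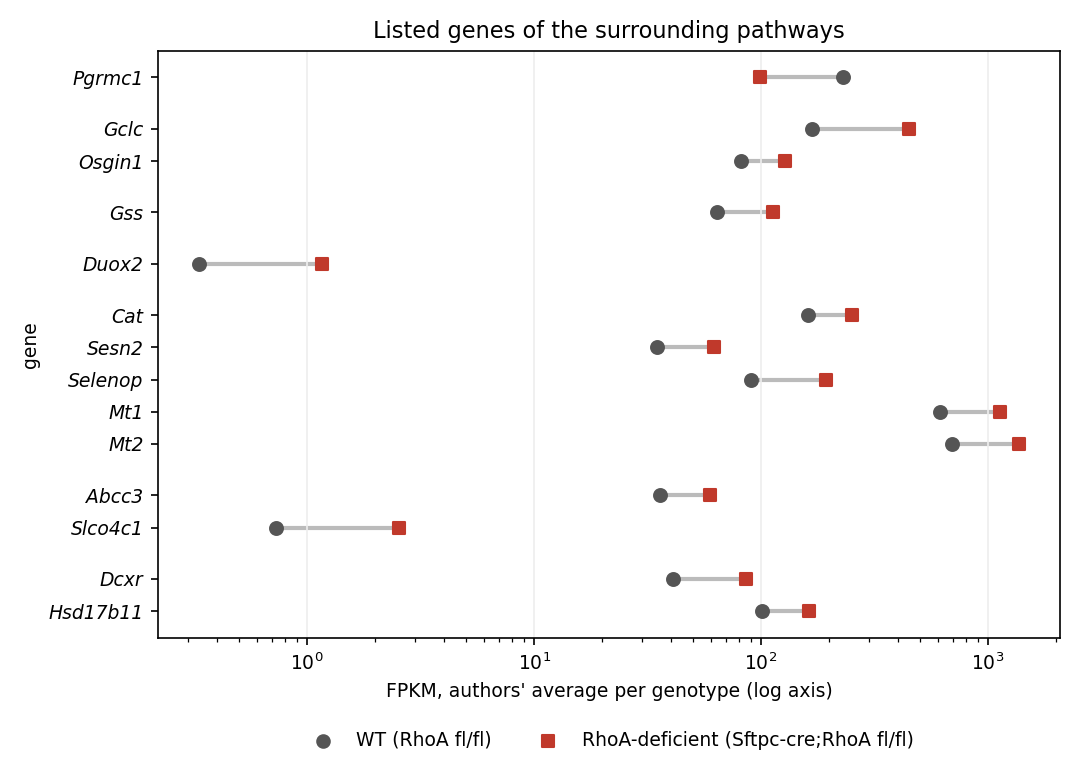
FPKM on a log axis of the 14 listed genes from the surrounding pathways that do not meet the symbol rule, with WT as grey circles and RhoA-deficient as red squares, and no error bars because 1 value is given per genotype. All but *Pgrmc1* are higher in RhoA-deficient AT2 cells, and *Duox2* and *Slco4c1* lie at or below 2.55 FPKM.

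Markers of cell types also differed between the genotypes. In bulk samples, fewer cells of a type and less RNA per cell cannot be told apart. The 14 AT2 markers in the table were all higher, with a summed FPKM of 6134 in WT and 13253 in RhoA-deficient cells. Of 19 markers of club cells, 5 were in the table, and 4 of them are xenobiotic genes described above. *Gsto1* was lower together with *Scgb1a1*, the defining secretoglobin of club cells, which had an FPKM of 27285 in WT and 9204 in RhoA-deficient cells, 2.96-fold lower. *Fmo2*, *Aox3* and *Ces1d*, on the same list, were higher. The club cell list therefore went both ways, and its summed FPKM, 28177 in WT and 9630 in RhoA-deficient cells, is almost all *Scgb1a1*. Of 62 markers of 8 further cell types, 19 were in the table, 15 lower and 4 higher, where 44.8% of the whole table were lower. The 5 ciliated cell, 3 lymphocyte, 2 fibroblast and 1 endothelial markers in the table were all lower, as were *Hopx* and *Pdpn* of AT1 cells and *Gpnmb* and *Lpl* of macrophages. The 4 higher ones were *Ager* and *Clic5* of AT1 cells, *Cd14* of macrophages and *S100a9* of granulocytes. The fibroblast markers, *Col1a2* and *Dcn*, had a summed FPKM of 91.7 in WT and 28.6 in RhoA-deficient cells. Of 7 mesothelial genes, a list written after the values were seen, 6 were in the table and all 6 were lower, as *Aldh1a2* was. Their FPKM summed to 227 in WT and 87.7 in RhoA-deficient cells, most of it *Msln*, the gene of mesothelin, at 121 and 48.2, and *Upk1b* at 67.7 and 25.3. No marker in the table was at 0. The part of cell type shares in the values of the xenobiotic and redox genes was not tested.

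Promoter windows of RefSeq, 300 bases long with 250 before and 50 after the start, were found for 13 of the 14 genes, 14 windows in all, since *Fmo2* has 2. *Ces1d* had no entry. The AhR core motif GCGTG was searched on both strands and was present before 7 of the 13 genes, *Cyp1a1*, *Cyp1b1*, *Aox3*, *Cyp4v3*, *Aldh1a2*, *Txnip* and *Noxo1*. Of all 32851 promoter windows, 32.4% hold it. The 7 genes include lower genes (*Cyp1a1*, *Cyp1b1*, *Aldh1a2*) and higher genes (*Aox3*, *Cyp4v3*, *Txnip*, *Noxo1*), so its presence did not follow the direction. The 4 matches before *Noxo1*, counted after they were seen, are a number that 1.33% of all windows reach. The antioxidant response core TGACNNNGC, searched in the same way, was present in the windows of *Aldh1a2* and *Akr1c19* and in 12.4% of all windows. A match to such short letters is a description of the window and not a bound site.

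**Figure D4:**
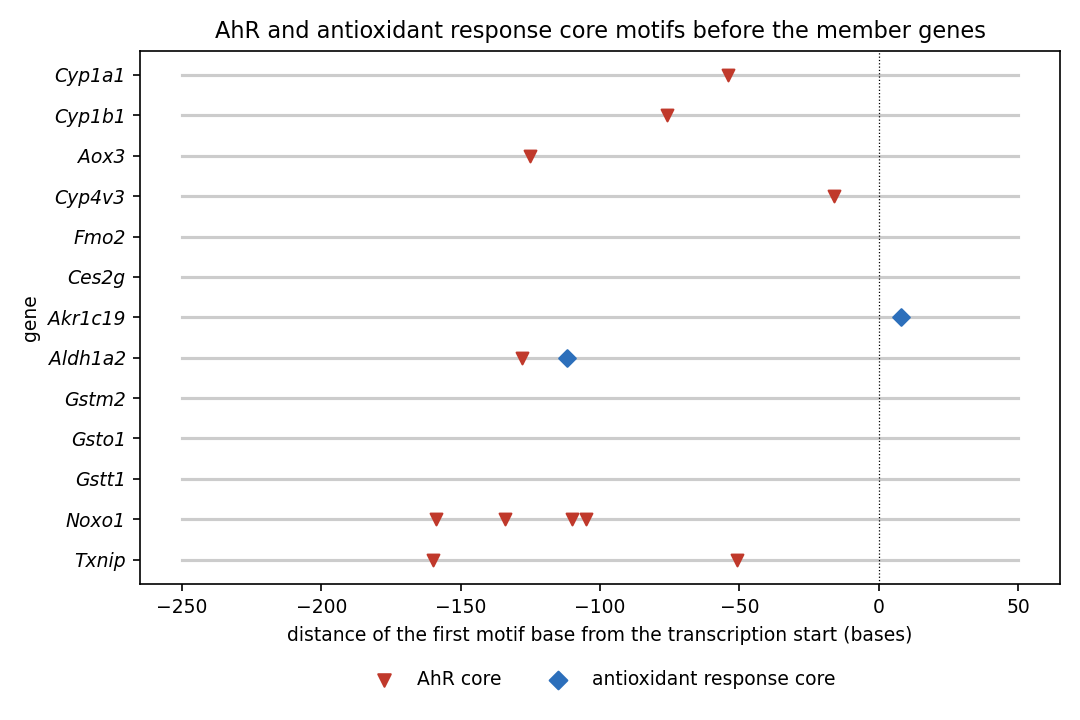
Positions of the AhR core motif (red triangles) and the antioxidant response core motif (blue diamonds) in the promoter windows of 13 genes, in bases from the transcription start, which is the dotted line. *Noxo1* has 4 AhR core motifs between 159 and 105 bases before the start, *Txnip* has 2, and the windows of *Fmo2*, *Ces2g*, *Gstm2*, *Gsto1* and *Gstt1* have none of either motif.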

How the data were processed

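AT2 cells of both genotypes, with 4 samples each by the labels, were profiled by RNA-seq of stranded mRNA libraries. The authors aligned the reads with STAR 2.7.2b, used Partek and RefSeq for annotation, and ran Cufflinks for the comparison. The authors' deposited values are FPKM averages over the samples of a genotype, 1 per genotype. The table also holds the authors' fold change, test statistic, p-value and q-value, which were not used, and lists only genes marked as significant. The submitters' processing notes name the build mm9, whereas the methods name GRCm38. Of the 812 loci, 644 equal the GRCm38 gene span in GENCODE M21, so GRCm38 was used, and 795 identifiers matched with their version.

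Computed here were differences in log2(FPKM + 1), ratios, ranks, exon overlaps, shared 50-base transcript windows and motif matches, with NumPy 2.4.6, pandas 2.3.3 and Python 3.11.15, drawn with Matplotlib 3.10.9 and tested on simulated data. A test with limma, planned for values per sample, was not run, since the table holds group values only. The depth per sample is unknown, so no interval is given.

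The rule for named genes took all members, genes of the lists in the table where their list is described, and genes whose exons overlap a member. Marker lists are described mostly by counts, and genes that share transcript windows with a member are named in addition. Members and lists were chosen with earlier results of these data known. *Maoa*, *Maob*, *Ptgis*, *Ptges*, *Blvrb*, *Vnn1*, *Vnn3*, *Ephx4* and *Nfe2l3* were chosen after their values were seen. Marker lists covered AT2, AT1, club, ciliated, endothelial and erythroid cells, fibroblasts, macrophages, lymphocytes and granulocytes, and a mesothelial list was added after the values were seen. Alternatives were pseudocounts of 0.1 and 0.01, a mean FPKM of at least 1 or 5, an FPKM of at least 1 in both genotypes, centring on the median of the table, 1.5-fold and 3-fold thresholds, and leaving out *Akr1c19*, whose family acts on steroids.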

Additional observations from a re-analysis of the deposited data

How the results depend on the processing

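The counts of 8 higher and 6 lower genes stayed within 1.5 times under every alternative run, and no direction reversed. A pseudocount leaves the sign of a difference as it is, so for the pseudocounts this holds by construction. Centring on the median of the table subtracts 0.65 from each difference. It left 2 higher genes past 2-fold, *Noxo1* and *Akr1c19*, instead of 7, and 6 lower genes instead of 4. In the whole table, 39 of the 812 genes were higher by this much once centred. Every lower gene of the table lies at or below -0.53 before centring. All 364 of them, 44.8% of the table, pass 2-fold once centred, so the 6 holds by construction. The table lists genes called different, so its median is no measure of scaling. On the scale of log2(FPKM + 1), a 3-fold threshold also left 2 higher genes, and 0 lower genes instead of 4, by its construction. By the ratio of the FPKM averages, *Aox3*, at 3.20, and *Ces2g*, 3.26-fold lower, pass 3-fold as well. With a pseudocount of 0.1 or 0.01, *Aldh1a2* passed 2-fold, at -1.03. Centring moved 5 single genes below 2-fold and, by the construction given above, 2 lower genes past it. Leaving out each replicate was not run because the table holds no value per sample. No paired analysis was possible because replicate numbers have no values of their own in group averages. The unknown depth limits above all genes with low FPKM, such as *Noxo1* in WT cells and *Ces2g* in RhoA-deficient cells.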

Other observations

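Several enzymes of the same kind lie outside the symbol rule, and the 9 genes in this paragraph were picked after their values were seen, 5 higher and 4 lower. None of the 9 is on the 11 pathway lists. The tally of 13 higher and 1 lower listed genes therefore depends on which genes were listed. The monoamine oxidases, which release hydrogen peroxide as they break down amines, lay in opposite directions: *Maoa* had an FPKM of 25.6 in WT and 14.8 in RhoA-deficient cells, and *Maob* had 6.15 and 13.8. *Ptgis*, prostacyclin synthase, which is itself a cytochrome P450 by descent, had 55.8 and 20.6, 2.71-fold lower, whereas *Ptges*, a glutathione-dependent prostaglandin E synthase, had 48.9 and 123, a ratio of 2.52. *Vnn1* and *Vnn3*, pantetheinases that release cysteamine, had ratios of 1.63 and 3.14. *Blvrb*, a biliverdin and flavin reductase, had 72.4 and 119. *Ephx4*, a member of the epoxide hydrolase family, had 3.32 and 0.356, and *Nfe2l3*, a transcription factor related to NRF2, had 8.13 and 3.10.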
